A study of Mus musculus with 6 samples.

Results

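Opposite-strand genes are transcripts named after the gene that they face on the other DNA strand: Bcas1os1 is read against Bcas1, and Bcas1 is called its sense partner. In the deposited count table of 37411 gene rows, 294 symbols end in "os", or in "os" and a number, behind a prefix that is itself a symbol of the table. Of these, 152 had fewer than 20 reads summed over the 6 libraries, including 34 listed at 0 in every library. The remaining 142 genes are described here beside their 131 sense partners. 20 of the 142 share 9 partners among them (Lrp8os1 to Lrp8os3, for example, all face Lrp8). At the limit of 20 reads, Vax2os had 20 and Tvp23bos 21, whereas Kdm6bos and Dnmt3aos had 19.

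RNA had been measured in primary hippocampal neurons, cultures grown from newborn (P0) CD-1 IGS mouse pups and kept for 16 days in vitro. 3 libraries came from cultures given 50 µM forskolin for 30 minutes (libraries 4, 5 and 6) and 3 from cultures given an equal volume of the solvent DMSO (libraries 1, 2 and 3). The comparison asks which transcripts changed within 30 minutes of forskolin, a plant compound that activates adenylyl cyclase and so raises cyclic AMP. The labels call the libraries separate samples but do not say whether they came from separate animals, so the p-values measure only the spread between these samples.

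Antisense RNAs can share a promoter region with their partner, leaving a divergent start site in the other direction, or can run into the partner's body and pair with its transcript. Some are long noncoding RNAs with roles of their own, and a few genes carrying the "os" suffix encode proteins. Cyclic AMP acts on transcription through protein kinase A and the factor CREB, which binds the cyclic AMP response element, TGACGTCA, or its shorter form, TGACG.

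Gene models from GENCODE M21 (GRCm38, the build in the submitters' processing notes) matched 139 of the 142 genes. 115 were annotated as antisense, 8 as processed transcripts, 7 as lincRNAs, 6 as protein-coding, 2 as bidirectional promoter lncRNAs and 1 as a transcribed unitary pseudogene. In 84 pairs the exons of both genes overlapped, by a median of 226.5 bp (range 6 to 3255). In 26 pairs the gene bodies overlapped but the exons did not. 22 pairs lay head to head, with the starts facing away from each other across a gap, 5 lay tail to tail, and 5 could not be placed. Whether the counting used the strand of the reads is not given in the sources used here. If the strand was not used, reads of the antisense gene and of its partner cannot be told apart where exons overlap. The values of such pairs are uncertain for that reason.

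Divergent pairs show what a shared start region looks like, so the stretch between the most upstream annotated starts of both genes (in GENCODE or RefSeq, GRCm38) is printed for 7 tested pairs in which RefSeq promoter sequence covered it. Each is written 5′ to 3′ on the strand of the sense gene, with capitals marking TGACG or its reverse complement CGTCA, the short form of the cyclic AMP response element. The stretches lie at chr11:61505087-61505143 (B9d1os), chr13:48968061-48968111 (Fam120aos), chr11:59948148-59948205 (Med9os), chr10:94688614-94688653 (Cep83os), chr9:72985383-72985428 (Ccpg1os), chr11:60931868-60932032 (Map2k3os) and chr2:14073935-14074097 (Stamos).
B9d1os and B9d1: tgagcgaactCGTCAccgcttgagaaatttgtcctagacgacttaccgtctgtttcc
Fam120aos and Fam120a: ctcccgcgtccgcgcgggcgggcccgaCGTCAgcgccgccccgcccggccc
Med9os and Med9: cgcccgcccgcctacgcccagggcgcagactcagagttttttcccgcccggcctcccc
Cep83os and Cep83: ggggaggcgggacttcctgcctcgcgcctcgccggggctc
Ccpg1os and Ccpg1: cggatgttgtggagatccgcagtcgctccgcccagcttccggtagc
Map2k3os and Map2k3: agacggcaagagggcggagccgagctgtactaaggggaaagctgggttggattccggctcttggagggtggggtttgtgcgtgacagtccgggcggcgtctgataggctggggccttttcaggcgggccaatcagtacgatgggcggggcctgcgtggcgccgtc
Stamos and Stam: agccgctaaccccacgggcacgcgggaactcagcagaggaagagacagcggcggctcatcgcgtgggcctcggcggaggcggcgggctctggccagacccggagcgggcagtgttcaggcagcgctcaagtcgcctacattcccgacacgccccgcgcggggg
The stretches run from 40 bp (Cep83os) to 165 bp (Map2k3os). The richest in G and C is that of Fam120aos, at 90.2%, and the poorest that of B9d1os, at 49.1%. Only those of B9d1os and Fam120aos held the short form among these 7, and none held the full TGACGTCA.

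Over the whole RefSeq promoter window, 250 bases before to 50 after a start, both motifs were counted on both strands, and every TGACGTCA also counts as a TGACG. The full element was present for 1 of the 91 opposite-strand genes with a window (1.1%, Appbp2os), for 7 of the 106 partners with one (6.6%) and for 549 of all 27025 genes (2.03%). The short form was present for 30 of the 91 opposite-strand genes (33%), 45 of the 106 partners (42.5%) and 23% of all genes. A match says only that these letters occur in the window.

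Library totals ran from 28342764 to 47548379 reads. Fos and Klf4, both known targets of cyclic AMP signalling, were called higher with forskolin (edgeR's quasi-likelihood test, Benjamini-Hochberg adjusted p = 0.0375 and 0.0381), while Nr4a1, a further target, was not (log2 fold change 2.20, adjusted p = 0.0652). Library 6 stood apart from the other forskolin libraries: its quality weight was 0.156, against 0.994 to 2.27 for the rest, and Klf4 reached 11.6 CPM (reads scaled to the TMM-adjusted library size) there against 59.3 and 52.2 CPM in libraries 4 and 5. Summed CPM of 8 microglial markers was 32.1, 22.4 and 21.9 in DMSO and 169, 268 and 23.6 in forskolin libraries 4, 5 and 6. 8 neuronal markers summed to 3427, 3840 and 4223 CPM in DMSO and 2526, 2856 and 3775 with forskolin. 8 astrocyte markers summed to 7685, 7485 and 6981 CPM in DMSO and 7677, 8517 and 6947 CPM with forskolin. All 8 markers of each of these lists were detected. Markers of neurons and of astrocytes were both at high levels in every library, whereas the label names neurons. In these bulk samples fewer cells of a type and less RNA per cell cannot be told apart. The part of these differences in the results on antisense genes was not tested, so the results on antisense genes are given with library 6 and, where that changes a call, without.

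As a class the opposite-strand genes were scarce. Their summed counts, scaled to CPM of the raw library total, were 272, 242 and 256 in DMSO libraries 1 to 3 and 269, 236 and 249 in forskolin libraries 4 to 6, so that the groups overlapped. Brip1os had the most reads, 6937 over all libraries, and the median gene had 91. 85 of the 142 had enough reads to be tested, and the other 57 had between 20 and 82 reads in all. The median tested gene had a mean of 0.727 CPM, which is 26.5 reads a library, and the range was 0.271 to 32.2 CPM.

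Per kilobase of the longest annotated transcript, the antisense gene was usually the minor member of its pair. Lengths were known for 137 pairs, and the median antisense level in DMSO was 5.23% of the partner's. The antisense gene was below its partner in all 6 libraries in 116 pairs, above it in all 6 in 9, and on both sides in 12. Uchl1os, an antisense RNA known for raising translation of its partner, was at 0.51 ± 0.25 CPM per kb (SD, n = 3) in DMSO, against 424 ± 13.5 for Uchl1, an abundant neuronal ubiquitin hydrolase.

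Among the 9 pairs with the antisense gene on top, Wdr83os led with 18.5 ± 0.684 CPM per kb (SD, n = 3) in DMSO, against 5.19 ± 0.596 for Wdr83. Wdr83os is a protein-coding gene whose product helps to fold membrane proteins at the endoplasmic reticulum. Brip1os was at 6.25 ± 0.605 CPM per kb against 0.24 ± 0.0219 for Brip1, a DNA repair helicase of dividing cells. Dlx6os1, the noncoding RNA also known as Evf2 that is made in forebrain interneurons, was at 3.72 ± 1.14 CPM per kb against 0.464 ± 0.21 for the homeobox gene Dlx6. Chrna1os, Has2os and Six3os1 also lay above partners of low level, at 0.736, 0.242 and 0.12 CPM per kb against 0.0693, 0.211 and 0.0663. Ccpg1os was at 5.05 ± 0.208 CPM per kb, and Ccpg1 was listed at 0.0479 ± 0.0125. In the last 2 pairs, Tomm6os and Rsf1os2, the partner was listed at 0 in every library. Tomm6, a subunit of the import pore of mitochondria, is used by nearly all cells, so a listing at 0 is no measure of its level. Rsf1, a chromatin remodelling gene, and Ccpg1 are also widely used, and whether their reads were counted under another symbol was not tested, so the order of these 3 pairs is uncertain.

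**Figure D1:**
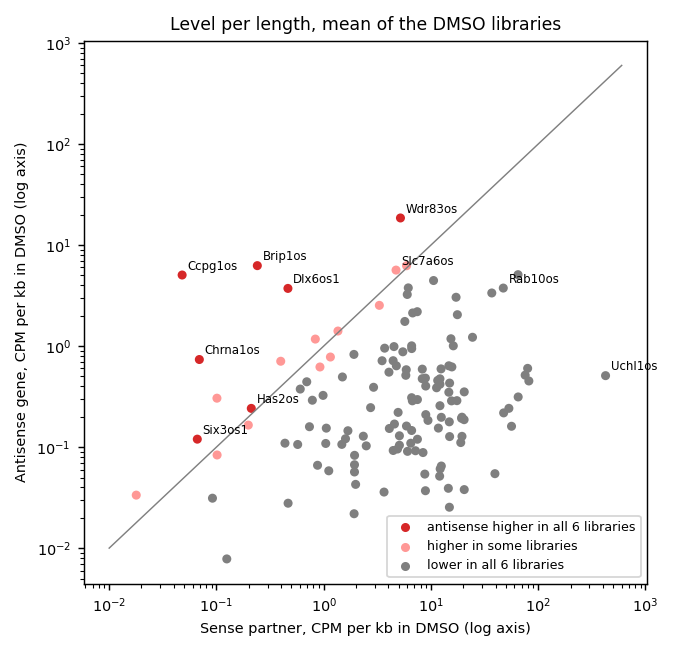
Level of each antisense gene against that of its sense partner, as CPM per kb of the longest transcript, mean of the 3 DMSO libraries, on log axes, with a line where both are equal. Pairs whose partner is listed at 0 are left out. Most points lie below the line, and Wdr83os, Brip1os, Ccpg1os, Dlx6os1, Chrna1os, Has2os and Six3os1 lie above it in all 6 libraries.

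Forskolin against DMSO gave no call among the opposite-strand genes. With edgeR's quasi-likelihood test and a Benjamini-Hochberg threshold of 0.05 over all 16233 genes tested, 0 of the 85 passed, where 245 genes passed in all (1.51%, with 0.172% called higher and 1.34% called lower). The smallest adjusted p was 0.0958, for Bcas1os1. 10 of the 85 had an unadjusted p under 0.05, beside 22.3% of all tested genes. The percentage for all genes is not matched for read depth. With only genes of at least 1 CPM on average, 7 of 32 opposite-strand genes had such a p, beside 3331 of 13981 genes. DESeq2 called 2 of the 85, Bcas1os1 and Sorbs2os, both higher, beside 10.9% of all genes. Limma with library quality weights called 18, beside 41.9% of all genes, limma-voom called 0 beside 1.34%, and edgeR without a filter on low counts called 0 of 142 beside 0.795%. The median log2 fold change was 0.10 for the 85 genes and 0.02 for all tested genes, with quartiles of -0.33 and 0.39 among the 85, and 50 of the 85 had a positive value.

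Without library 6, edgeR called 19 of the 105 opposite-strand genes that could then be tested, 12 higher and 7 lower, beside 33.6% of all genes (16.5% called higher and 17.1% lower). Removing also the trend of fold change with GC content gave 19 of 105 again, 13 higher and 6 lower, beside 32% of all genes, but not the same genes: Brip1os and Kcnmb4os2 were no longer called, and Rapgef3os2 and Taco1os were called higher. These 19 are 18.1% of the 105, and the difference from the background was not tested. Among the sense partners, 1 of 123 passed with all libraries (Grin1, lower) and 54 of 124 without library 6. Samples of the groups also did not overlap for 10 tested antisense genes on the higher side (10.3% of all tested genes did so) and for 11 on the lower side (16.2% of all tested genes). The remaining 64 had overlapping groups. Over all 142, tested or not, 17 were higher and 15 lower without overlap, beside 10.4% and 14.5% of all genes with 20 or more reads. Forskolin libraries 4 and 5 lay above every DMSO library while library 6 did not in 13 of the 85 genes (15.3%, beside 19.9% of all tested genes), and below every DMSO library in that pattern in 5 (5.88%, beside 16.3%). These differences were not tested.

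**Figure D2:**
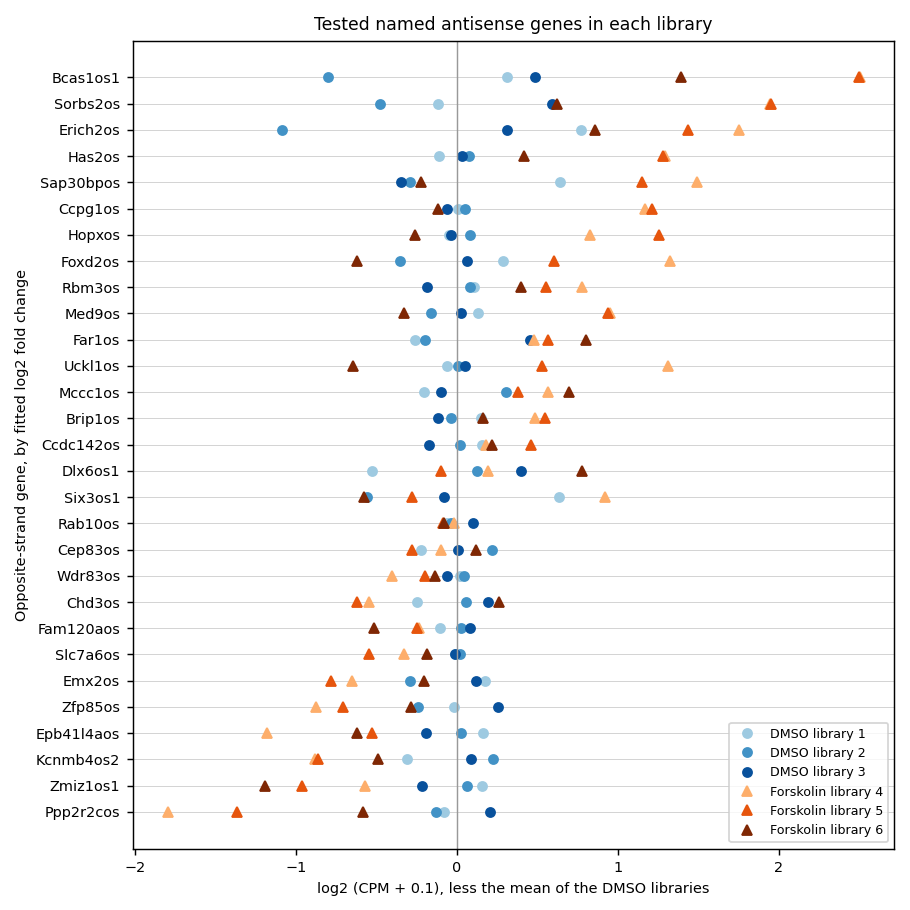
Level of each tested antisense gene that is named by rule, as log2 (CPM + 0.1) less the mean of the DMSO libraries, with 1 point per library (circles DMSO, triangles forskolin), ordered by fitted log2 fold change. Bcas1os1, Sorbs2os, Erich2os and Has2os have all 3 forskolin libraries on the right of every DMSO library, Ppp2r2cos and Zmiz1os1 have them on the left, and in Ccpg1os, Hopxos and Med9os only libraries 4 and 5 stand out.

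Bcas1os1 (chr2:170405181-170407175, plus strand) shares 440 bp of exon with Bcas1, a gene of the myelin-forming lineage. It had 6, 1 and 8 reads in the DMSO libraries and 57, 41 and 17 in forskolin libraries 4, 5 and 6. All 3 forskolin libraries lay above every DMSO library, with library 6 nearest to them. The log2 fold change was 2.67 ± 0.63 (SE; adjusted p = 0.0958, edgeR), and 2.95 without library 6 (adjusted p = 0.0102). Bcas1 was at 18.6, 22.4 and 25.2 CPM in DMSO and 67.9, 41.6 and 24.6 CPM with forskolin, where library 6 lay within the DMSO range. Its log2 fold change was 1.02 (adjusted p = 0.172, edgeR), or 1.29 without library 6 (adjusted p = 0.0091) and 0.58 without library 4 (adjusted p = 0.368). Mog, a defining gene of mature oligodendrocytes, was at 0.781, 0.361 and 0.421 CPM in DMSO and 7.46, 14.3 and 0.567 CPM in libraries 4, 5 and 6. The whole list of 8 markers of the oligodendrocyte lineage summed to 816, 741 and 785 CPM in DMSO and 851, 1339 and 589 CPM with forskolin, with 3 of 8 fold changes positive. None of the 8 was at 0 throughout. Mbp was high in libraries 4 and 5 like Mog, whereas Olig1 was at 253, 228 and 231 CPM in DMSO and 141, 153 and 103 CPM with forskolin, and Cspg4 and Sox10 were also below every DMSO library in each forskolin library. The part of these cells in the values of Bcas1os1 and Bcas1 was not tested.

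Sorbs2os (chr8:45723325-45819297, minus strand) lies across Sorbs2, which encodes an adaptor protein of the cytoskeleton and of synapses, and shares 1051 bp of exon with it. Its reads were 13, 9 and 26 in DMSO and 95, 69 and 25 with forskolin. In CPM this was 0.406, 0.295 and 0.729 against 2.02, 2.03 and 0.747, so library 6 was barely above the highest DMSO library. The log2 fold change was 1.73 ± 0.52 (SE; adjusted p = 0.142, edgeR) with library 6 and 2.05 without (adjusted p = 0.0117). Sorbs2 itself had a log2 fold change of 0.54 (adjusted p = 0.225), or 0.74 without library 6 (adjusted p = 0.00719), and -0.045 once the trend of fold change with GC content was removed.

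Has2os (chr15:56689944-56778399, plus strand) faces Has2, a synthase of the matrix polymer hyaluronan. It had 7, 8 and 9 reads in DMSO and 35, 25 and 12 with forskolin, and the groups did not overlap in CPM. The log2 fold change was 1.32 ± 0.40 (SE; adjusted p = 0.143, edgeR), and 1.57 without library 6 (adjusted p = 0.0153). Has2 was at 0.874, 0.886 and 0.926 CPM in DMSO and 1.17, 2.03 and 1.31 CPM with forskolin, again without overlap. Both genes of this pair were therefore higher in each forskolin library, and their adjusted p missed the threshold (0.214 for Has2).

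Erich2os, Rbm3os, Far1os, Mccc1os and Ccdc142os were also exon-overlapping genes above every DMSO library in each forskolin library. Their log2 fold changes were 1.44, 0.69, 0.66, 0.60 and 0.33. Mkln1os, outside the naming rule and given to complete the count, had 0.30. None of these 6 was called by edgeR with or without library 6. Limma with library quality weights, which called 41.9% of all genes, called Erich2os higher. Rbm3 (a cold-induced RNA-binding protein) and Far1 (a fatty acyl-CoA reductase) also had non-overlapping groups, with log2 fold changes of 0.56 and 0.68 that passed only without library 6 (0.64 and 0.78, adjusted p = 0.0285 and 0.0356, edgeR). Brip1os was the head-to-head gene with this pattern: 30.6, 26.9 and 25.4 CPM in DMSO and 38.7, 40.4 and 30.9 CPM with forskolin. Its log2 fold change was 0.41 (adjusted p = 0.178, edgeR), 0.50 without library 6 (adjusted p = 0.0188) and 0.09 once the GC trend was removed.

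On the lower side, Ppp2r2cos (chr5:36873595-36876879, minus strand) lies within the gene body of Ppp2r2c, a regulatory subunit of protein phosphatase 2A, with no exon in common. It had 23, 21 and 32 reads in DMSO and 7, 8 and 16 with forskolin. Every forskolin library was below every DMSO library, with a log2 fold change of -1.44 ± 0.46 (SE; adjusted p = 0.157, edgeR), or -2.03 without library 6 (adjusted p = 0.0124). Ppp2r2c was at 272, 320 and 334 CPM in DMSO and 190, 206 and 302 CPM with forskolin, where the groups overlapped. It was called without library 6 (log2 fold change -0.66, adjusted p = 0.00995, edgeR) and not with it (-0.41, adjusted p = 0.282).

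Zmiz1os1 (chr14:25257523-25461128, minus strand) was at 2.28, 2.13 and 1.74 CPM in DMSO and 1.34, 0.999 and 0.836 CPM with forskolin. It was lower in each forskolin library, and here library 6 was the lowest. Its partner Zmiz1, a transcriptional coregulator, was at 63.3, 60.5 and 62.4 CPM in DMSO and 45.3, 54.6 and 43.4 CPM with forskolin, also without overlap. The log2 fold changes were -0.95 and -0.38, and edgeR called neither with all libraries (adjusted p = 0.142 and 0.151, edgeR) or without library 6 (0.0586 and 0.0546). Limma with library quality weights, which called 41.9% of all genes, called Zmiz1os1 lower.

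Zfp85os and Zfp85 went opposite ways. Zfp85os (chr13:67729262-67756838, plus strand) was at 1.81, 1.54 and 2.22 CPM in DMSO and 0.956, 1.09 and 1.49 CPM with forskolin. Zfp85, a zinc-finger gene with which it shares 340 bp of exon, was at 0.562, 0.82 and 1.37 CPM in DMSO and 3.48, 3.56 and 2.51 CPM with forskolin. For neither gene did the groups overlap, and the log2 fold changes were -0.66 ± 0.29 (SE; adjusted p = 0.24, edgeR) for Zfp85os and 1.78 (adjusted p = 0.0765) for Zfp85. Without library 6 both passed, at -0.88 (adjusted p = 0.049) and 1.91 (adjusted p = 0.0125). The log2 ratio of antisense to sense reads was 2.49 lower with forskolin. With 3 libraries against 3, the exact two-sided permutation test of any such ratio cannot go below p = 0.1, which is the value here and for each other ratio described below as not overlapping. Zfp85 belongs to a large family of similar zinc-finger genes, so reads may have been split among copies, which was not tested.

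**Figure D3:**
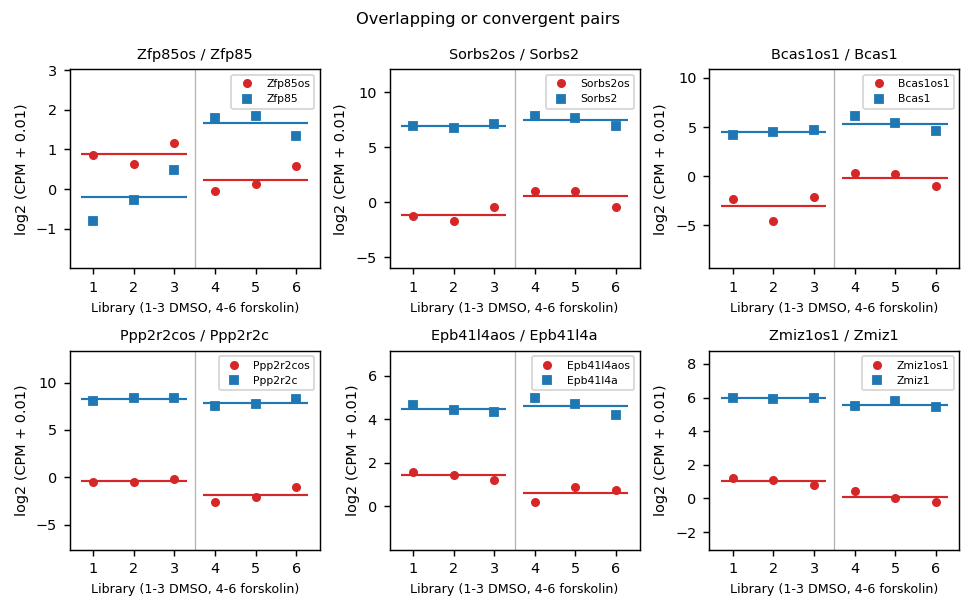
log2 (CPM + 0.01) of 6 antisense genes (red circles) and their sense partners (blue squares) in each library, with group means as lines (DMSO libraries 1 to 3 on the left of the grey line, forskolin libraries 4 to 6 on the right). Zfp85os is lower and Zfp85 higher in each forskolin library, so that the order of the pair is turned over, while Zmiz1os1 and Zmiz1 are both lower.

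Epb41l4aos lies tail to tail with Epb41l4a, 340 bp away, which codes for a membrane-skeleton protein. It was at 3.0, 2.72 and 2.33 CPM in DMSO and 1.13, 1.82 and 1.7 CPM with forskolin, while Epb41l4a was at 25.5, 21.7 and 19.9 CPM and at 31.7, 26.4 and 18.2 CPM. The antisense gene was lower in every forskolin library (log2 fold change -0.79, adjusted p = 0.174, edgeR) and the partner's groups overlapped. Epb41l4aos was called lower by limma with library quality weights, beside 41.9% of all genes called there. The log2 ratio of the pair was lower by 0.96 without overlap between the groups. Slc7a6os, a protein-coding gene also tail to tail with its partner, the amino acid transporter gene Slc7a6, was at 16.6, 17 and 16.6 CPM in DMSO and 13.3, 11.4 and 14.7 CPM with forskolin. Its log2 fold change was -0.35 (adjusted p = 0.217, edgeR), or -0.45 without library 6 (adjusted p = 0.0348), and that of Slc7a6 was 0.20.

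Kcnmb4os2, across a potassium channel subunit gene, was at 1.47, 2.17 and 1.96 CPM in DMSO and 0.956, 0.97 and 1.28 CPM with forskolin. The log2 fold change was -0.80 (adjusted p = 0.174, edgeR), and -0.97 without library 6 (adjusted p = 0.0392). It turned to 0.13 once the trend with GC content was removed. At 65.5% GC the transcript is far above the median of the tested antisense genes, 49.6%, and that of all tested genes was 49.5%. Wdr83os had 17.3, 17.6 and 16.4 CPM in DMSO and 12.9, 14.9 and 15.5 CPM with forskolin, and Wdr83 was lower in each forskolin library as well. The fold changes of that pair were small, -0.24 and -0.36 on the log2 scale, and were not called with or without library 6. H3f3aos, Nckap5los and Prkag2os1, outside the naming rule, were also lower in each forskolin library, at -0.35, -0.61 and -0.63, none of them called.

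Of the 14 head-to-head pairs with both genes tested, 5 had fold changes of the same sign. Cep83os was at 14.1, 19.2 and 16.6 CPM in DMSO and 15.4, 13.6 and 17.9 CPM with forskolin, whereas Cep83, a centriole protein gene, was at 11.5, 11.0 and 16.2 CPM and at 26.0, 32.8 and 14.8 CPM. The log2 fold changes were -0.09 ± 0.18 (SE) and 0.93, and without library 6 Cep83 passed (1.17, adjusted p = 0.0091, edgeR) where Cep83os did not (-0.22, adjusted p = 0.341). The GENCODE starts of this pair are 78 bp apart, and the 40 bp printed above are the part of this gap that no start of either annotation enters. The small value of Cep83os turned to 0.05 without library 2 and to 0.04 without library 5.

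Med9os went the other way from Med9, a subunit of the Mediator complex. The antisense gene was at 1.19, 0.952 and 1.09 CPM in DMSO and 2.17, 2.14 and 0.836 CPM with forskolin, high in libraries 4 and 5 and below every DMSO library in library 6. Med9 was at 32.6, 37.1 and 31.9 CPM in DMSO and 24.6, 23.1 and 28.2 CPM with forskolin, lower in each. Without library 6 the log2 fold changes were 0.98 (adjusted p = 0.0229, edgeR) and -0.52 (adjusted p = 0.0164), and with it 0.67 and -0.42 (adjusted p = 0.355 and 0.144).

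For B9d1os and Fam120aos the printed stretch holds the short form, and a link between the motif and the level was not tested. B9d1os was at 1.06, 0.623 and 0.785 CPM in DMSO and 0.361, 0.646 and 0.508 CPM with forskolin, beside 26.0, 20.9 and 18.2 CPM and 35.9, 32.2 and 17.5 CPM for B9d1, a gene of the ciliary transition zone. Fam120aos was at 5.53, 6.07 and 6.31 CPM in DMSO and 5.06, 5.0 and 4.15 CPM with forskolin, with all forskolin libraries lower, while Fam120a stayed between 149 and 205 CPM in all 6 libraries. Neither antisense gene was called with or without library 6 (adjusted p = 0.286 and 0.324 with it, edgeR). Map2k3os and Stamos had log2 fold changes of 0.14 and 0.06, beside 0.09 and 0.16 for Map2k3, a kinase of the p38 pathway, and Stam, an endosomal sorting gene.

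Ccpg1os, a protein-coding gene whose start lies 47 bp from that of Ccpg1, was at 9.81, 10.1 and 9.31 CPM in DMSO and 22, 22.7 and 8.99 CPM with forskolin. Libraries 4 and 5 stood high and library 6 was just below the DMSO range. The log2 fold change was 0.88 ± 0.34 (SE; adjusted p = 0.201, edgeR), or 1.18 without library 6 (adjusted p = 0.00306, the smallest of the 19 genes called there). Ccpg1, a receptor for autophagy of the endoplasmic reticulum, was listed at 0.125, 0.131 and 0.196 CPM in DMSO and 0.0425, 0.0588 and 0.0299 CPM with forskolin, lower in each forskolin library but below the filter on low counts. Without that filter its log2 fold change was -1.71 and was not called (adjusted p = 0.265, edgeR). These near-0 values may not measure the level of Ccpg1, as said above.

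**Figure D4:**
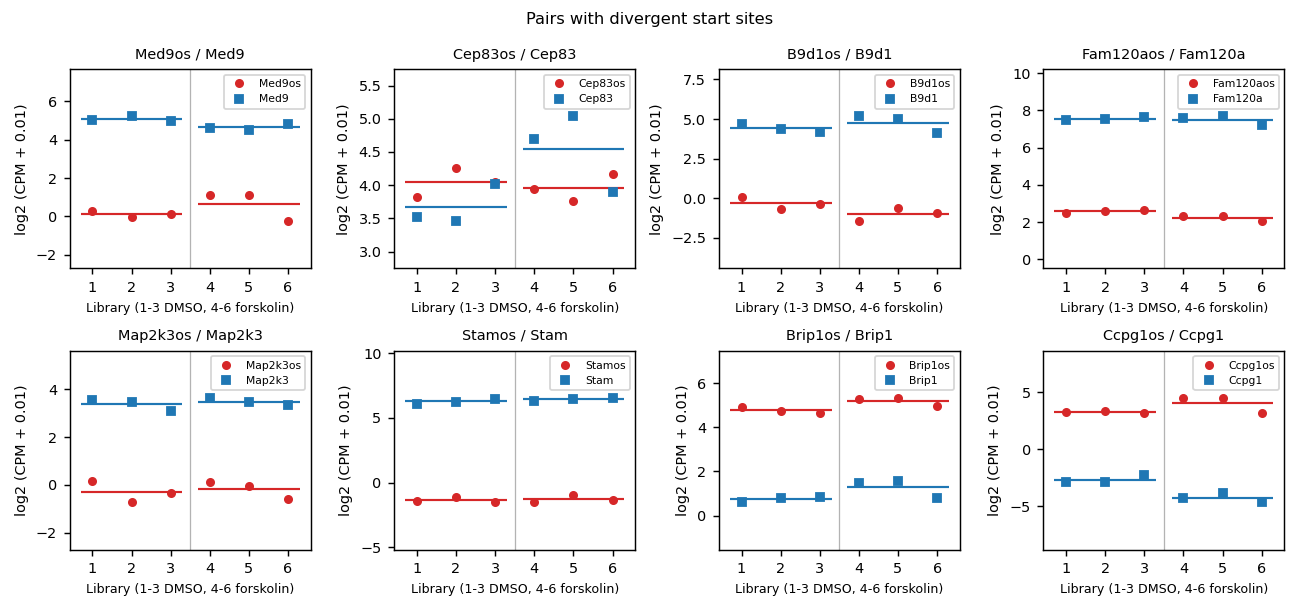
log2 (CPM + 0.01) of the antisense gene (red circles) and the sense partner (blue squares) of 8 head-to-head pairs in each library, with group means as lines (DMSO libraries 1 to 3 on the left of the grey line, forskolin libraries 4 to 6 on the right). Cep83os is level while Cep83 is high in libraries 4 and 5, Med9os is high in libraries 4 and 5 while Med9 is lower in all 3 forskolin libraries, and library 6 lies within or near the DMSO range for Ccpg1os.

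Across the 82 pairs with both genes tested, the log2 fold changes of antisense and sense genes had Pearson's r = 0.36 and Spearman's rho = 0.34, and 47 pairs had the same sign. The points share the 6 libraries, and some share a partner. In the 53 pairs whose exons overlap, r was 0.45 and rho 0.51, with 36 of the same sign. Reads of overlapping exons could enter both counts or the wrong one, and the part of this was not tested. In the 14 head-to-head pairs r was -0.15 and rho -0.15, with 5 of the same sign and 7 in which the antisense value was positive and the sense value negative. In the 10 pairs with overlapping gene bodies but separate exons r was 0.28 and rho 0.48, with 4 of the same sign. The difference between arrangements was not tested. Without library 6 the values of r were 0.33 over all pairs, 0.44 with overlapping exons, 0.10 with overlapping gene bodies but separate exons (rho 0.13) and -0.14 head to head.

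**Figure D5:**
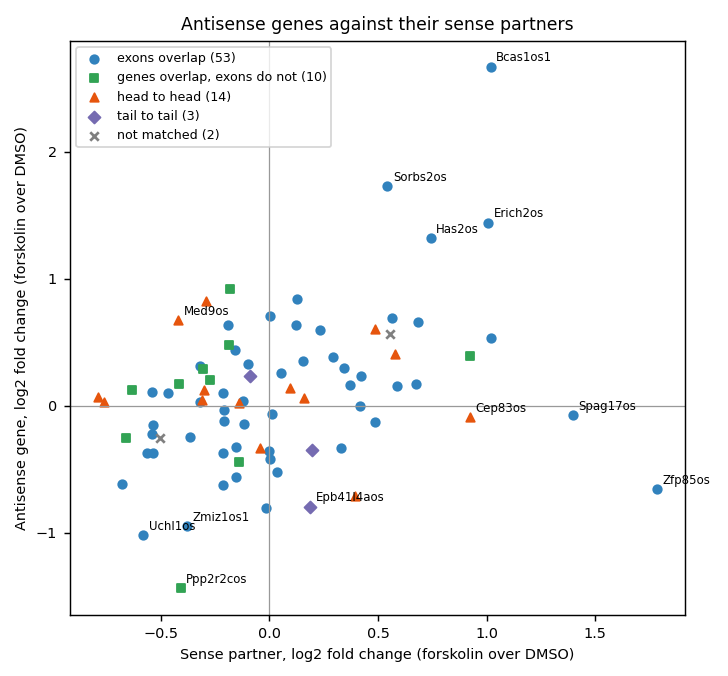
Fitted log2 fold change (forskolin over DMSO) of each antisense gene against that of its sense partner, for the 82 pairs with both genes tested, by arrangement. Bcas1os1, Sorbs2os, Has2os and Erich2os lie high on the right, Zfp85os lies low on the far right with its partner higher and itself lower, and the 14 head-to-head pairs show r = -0.15.

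The antisense genes of cyclic AMP response genes were few. Of 24 early response genes such as Fos, Jun and Arc, only Jun had an opposite-strand gene with 20 or more reads. Junos had 7, 8 and 3 reads in DMSO and 9, 6 and 14 with forskolin, too few to be tested and with overlapping groups. Jun, a subunit of the AP-1 factor, was at 162, 157 and 137 CPM in DMSO and 136, 159 and 137 CPM with forskolin (log2 fold change -0.08, adjusted p = 0.743, edgeR, and 0.15 with the GC trend removed).

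Grin1, the obligatory subunit of NMDA receptors, was the partner called with all libraries. It was at 147, 192 and 168 CPM in DMSO and fell to 79.8, 82.7 and 86.9 CPM with forskolin (log2 fold change -1.02, adjusted p = 0.0306, edgeR). Grin1os had 3, 9 and 3 reads in DMSO and 9, 7 and 6 with forskolin, with overlapping groups. The log2 ratio of antisense to sense reads was 1.41 higher with forskolin and did not overlap between the groups, and 1307 bp of Grin1os lie on exons of Grin1. With the trend with GC content removed, its log2 fold change was -0.55 (adjusted p = 0.344), and with any 1 of libraries 1 to 5 left out it was between -1.09 and -0.90 and not called. In each of these settings 0 of all tested genes were called.

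By a list of symbol prefixes of developmental transcription factors (Dlx, Emx, Fox, Otx, Pax, Sox and Vax among them), 9 antisense genes were named: Dlx6os1, Emx2os, Foxd2os, Foxl2os, Otx2os1, Pax6os1, Six3os1, Sox6os and Vax2os. The list does not hold every such factor, and Prox1os, Dmrta2os, Zeb2os and Zfhx2os fall outside it. 4 of the 9 passed the filter on low counts with all libraries, and none of these was called by edgeR in that fit. Limma with library quality weights called Emx2os lower, beside 41.9% of all genes called there. Dlx6os1 was at 11.5, 18.0 and 21.9 CPM in DMSO and 19.0, 15.5 and 28.4 CPM with forskolin, and the groups overlapped. Its log2 fold change of 0.29 turned to -0.16 once the trend with GC content was removed and to -0.01 without library 6. The interneuron markers Gad1, Gad2, Slc32a1, Sst and Npy summed to 394, 615 and 628 CPM in DMSO and to 347, 281 and 639 CPM with forskolin, a sum that was highest in library 6, as Dlx6os1 was. The markers did not move as one: in library 6, Gad1 and Gad2 were above every other library, at 388 and 128 CPM, while Slc32a1 was at 23.3 CPM, below every DMSO library. Sst and Npy were within the DMSO range there. Their part in the level of Dlx6os1 was not tested.

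Emx2os, opposite the cortical patterning gene Emx2, was at 4.03, 2.89 and 3.87 CPM in DMSO and 2.23, 2.03 and 3.08 CPM with forskolin, where only library 6 entered the DMSO range. The log2 fold change was -0.56 (adjusted p = 0.267, edgeR), or -0.77 without library 6 (adjusted p = 0.0478). Pax6os1 had 8, 6 and 8 reads in DMSO and 35, 16 and 9 with forskolin. It passed the filter on low counts only with a library left out. Its log2 fold change was 1.42 without library 6 (adjusted p = 0.0343, edgeR), beside 0.67 for Pax6, and 1.15 with all libraries and no filter (adjusted p = 0.283). Six3os1 and Foxd2os had log2 fold changes of 0.12 and 0.82 with overlapping groups, and that of Six3os1 was -0.59 without library 4. Foxl2os, Otx2os1, Sox6os and Vax2os had between 20 and 38 reads in all and overlapping groups.

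Sap30bpos, Hopxos and Uckl1os were also called without library 6, and there libraries 4 and 5 carried the difference. Sap30bpos was at 4.15, 2.13 and 2.05 CPM in DMSO and 7.58, 5.96 and 2.24 CPM with forskolin. Hopxos (0.50, 0.558 and 0.505 CPM, then 0.998, 1.38 and 0.418 CPM) and Uckl1os (1.84, 1.94 and 1.99 CPM, then 4.93, 2.82 and 1.19 CPM) likewise had library 6 at or below the DMSO level. Without it, the log2 fold changes of these 3 were 1.27, 1.16 and 1.0, while those of their partners Sap30bp, Hopx and Uckl1 were -0.27, 0.07 and 0.17. Bach2os, Fancd2os and Tmem51os1 did not pass the filter on low counts with all libraries. Without library 6 they were called at log2 fold changes of 2.03, 1.86 and -2.15 (adjusted p = 0.045, 0.0172 and 0.03, edgeR), from 51, 65 and 39 reads in all. With all libraries and no filter they were at 1.62, 1.56 and -1.48 and were not called (adjusted p = 0.326, 0.195 and 0.27). Library 6 was on the same side of every DMSO library as libraries 4 and 5 for Fancd2os and Tmem51os1, and within the DMSO range for Bach2os. Chd3os, opposite a chromatin remodelling gene, was at 28.5, 35.1 and 38.6 CPM in DMSO and 23.2, 21.9 and 40.5 CPM with forskolin, and had a log2 fold change of -0.61 without library 6 (adjusted p = 0.0244, edgeR) and -0.26 with it. Chd3 was at -0.78 without library 6 (adjusted p = 0.00417) and -0.50 with it (adjusted p = 0.218).

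Among the 8 antisense genes of highest CPM, Rab10os varied least. It was at 14.4, 14.6 and 16.1 CPM in DMSO and 14.8, 14.1 and 14.2 CPM with forskolin (log2 fold change -0.06 ± 0.13, SE), and its partner Rab10, a GTPase of vesicle transport, had 0.01 (-0.16 with the GC trend removed). Uchl1os, which was not named by rule and was singled out after its values were seen because of what is known of it, was at 1.31, 0.788 and 0.477 CPM in DMSO and 0.595, 0.323 and 0.328 CPM with forskolin. Its groups overlapped (log2 fold change -1.02, adjusted p = 0.256, edgeR). Uchl1 was at 504, 513 and 482 CPM in DMSO and 286, 276 and 439 CPM with forskolin, lower in each library, and passed only without library 6 (-0.84, adjusted p = 0.00325).

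The summed reads of all 142 antisense genes, divided by the summed reads of their partners, came to 3.69%, 3.70% and 3.59% in DMSO and 4.61%, 4.23% and 3.87% with forskolin. The most abundant genes weigh most in these sums. Pair by pair, the median shift of the log2 ratio over all 142 was 0.17, with 82 positive and 60 negative. The antisense sum kept its share of all reads, as given above, while the partners' sum was 0.736%, 0.655% and 0.713% of all reads in DMSO and 0.583%, 0.559% and 0.642% with forskolin. Some natural antisense RNAs carry other suffixes. Of 6 such symbols not annotated as protein-coding, 5 had enough reads and 0 were called by edgeR (1 at an unadjusted p under 0.05). Kcnq1ot1 and Airn, imprinted antisense RNAs, had log2 fold changes of 0.73 and -0.15, Sox2ot had 0.40, Nespas 0.20 and Dlx1as -0.60, each with overlapping groups. No opposite-strand gene and no partner is among the 132 genes of the authors' deposited table.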

How the data were processed

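The authors deposited unnormalised read counts by gene symbol for 6 libraries. Salmon, DESeq and GRCm38 are named in the submitters' processing notes, without role or order. The annotation, strand setting and filters are not given in the sources used here. A second deposited table gives the authors' log2 fold changes, p-values, test statistic (a score) and mean signal, and was read only for membership. Members and lists were chosen with earlier results of these data known. Counts were tested with edgeR 4.0.16 in R 4.3.3 (filterByExpr with a minimum count of 10 and total of 15, TMM, glmQLFit and glmQLFTest, Benjamini-Hochberg adjustment over all genes, 0.05), and the fit was tested on simulated data. The simulation had no GC trend and no library that stood apart, and changed only genes with more reads than the median tested antisense gene. It does not show how well changes in scarcer genes are found. CPM use the TMM-scaled library size. Ratios use log2 of counts plus 1 and an exact two-sided permutation test. DESeq2 1.42.0, limma 3.58.1 (voom, quality weights), other scalings and filters, removal of the trend of fold change with GC content, and leaving out each library were alternatives. A fit without the GC trend and without library 6 was added after seeing the data.

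39 genes were named by rule: those called with or without library 6, the largest non-overlapping changes with a mean count of at least 20 (up to 8 in each direction), the 8 of highest CPM, those whose partner is called or an early response gene, and those whose partner's symbol begins with a listed prefix of developmental transcription factors. Arrangements and lengths come from GENCODE M21 and promoter sequence from RefSeq (GRCm38.p6). Other antisense symbols were found by the suffixes "as" and "ot". Hras, Leprot, Vipas39 and Znrd1as also met that rule and were left out as protein-coding in GENCODE. At about 26.5 reads a library in the median tested gene, counting error limits the precision of single values.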

Additional observations from a re-analysis of the deposited data

How the results depend on the processing

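Depth limited these genes: 57 of 142 had too few reads for a test. Opposite-strand genes called, 0 with all libraries, came to 2 with DESeq2, 18 with quality weights and 19 without library 6 and the GC trend, and ranged from 0 to 19 when 1 library was left out (19 only without library 6). No call was made with limma-voom (11 at an unadjusted p under 0.05), no filter (16), or the GC trend removed (9). Sense partners called, 1, came to 14, 68 and 42 under those settings, to 0 with the GC trend removed, and to 0 to 54 with 1 library left out. All genes called, 245, came to 1775, 6795 and 5429, to 137 with RLE size factors, to 0 with the GC trend removed, and to 0 to 5698 with 1 library left out. Other antisense symbols called, 0, came to 2 with quality weights, 1 without library 6 and the GC trend, and 0 to 1 with 1 library left out. The median log2 fold change of the antisense genes, 0.10, was -0.015 on library size alone, which moved the median of all genes to -0.09, and 0.01 to 0.19 with 1 library left out. The median shift of the named log2 ratios was 0.35, and 0.17 (without library 6) to 0.31 with 1 library left out. Those pairs were partly chosen for their changes, and over all 142 pairs the median was 0.17, with 82 positive and 60 negative. A list minimum of 10 or 60 reads gave 182 or 88 genes, with 0 called. Of 949 alternative values of named genes and partners, 810 kept direction and side of the threshold and 38 changed sign. Removing the GC trend turned the log2 fold change to 0.56 for Ccdc142, -0.16 for Dlx6os1, 0.016 for Fam120a, 0.36 for Foxd2, 0.15 for Jun, 0.13 for Kcnmb4os2, -0.017 for Mccc1, -0.16 for Rab10 and -0.045 for Sorbs2. Leaving out library 6 as well gave 0.75 for Ccdc142, -0.60 for Dlx6os1, 0.14 for Fam120a, 0.44 for Foxd2, -0.023 for Hopx, 0.14 for Jun, -0.0798 for Mccc1 and -0.17 for Rab10. Quality weights gave 0.16 for Ccdc142 and 0.083 for Fam120a, and library size alone gave -0.0904 for Rab10 and -0.00074 for Six3os1. Kcnmb4, at -0.01, was 0.0028 with DESeq2, 0.0048 with RLE, 0.023 with voom and 0.0033 among genes of at least 1 CPM. With 1 library left out, values ranged from -0.26 to 0.18 for Ccdc142, -0.22 to 0.0503 for Cep83os, -0.00897 to 0.50 for Dlx6os1, -0.0017 to 0.36 for Epb41l4a, -0.10 to 0.0697 for Fam120a, -1.51 to 0.21 for Foxd2, -0.25 to 0.15 for Kcnmb4, -0.0595 to 0.13 for Rab10 and -0.59 to 0.58 for Six3os1. No paired analysis was possible because the libraries are numbered 1 to 6 across both groups. The cause of these changes was not tested.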
